A study of Mus with 6 samples.

Results

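The genes described here are 9 outputs and feedback regulators of the ERK pathway, taken by Ensembl ID from a table of read counts for 35304 IDs: Dusp4, Dusp5, Dusp6, Spry2, Spry4, Etv4, Etv5, Fosl1 and Phlda1. They were chosen for their place in the pathway, with earlier results of these data known, and all 9 were found. The counts come from RNA sequencing of 4T1, a mouse mammary carcinoma line grown in RPMI medium with fetal bovine serum. There were 3 untreated samples and 3 samples given 10 µg/mL isopimaric acid (IPA), a plant diterpene acid that the series title calls an ion channel regulator, for 24 h. The labels record no treatment of the untreated samples and name no vehicle. Nothing in them tells whether the replicates are separate cultures, so the p-values speak only of the spread among these 6 samples, and that spread may be technical.

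The ERK pathway carries signals from growth factor receptors through RAS, RAF and MEK to the kinases ERK1 and ERK2. Active ERK raises the transcription of a set of genes, and several of their products act back on the pathway. The DUSP phosphatases remove phosphate from ERK, and the Sprouty proteins restrain signalling between the receptors and RAF. ETV4 and ETV5 are transcription factors that act downstream. Because the messages of these genes follow pathway activity, groups of them are used in tumour cells as a readout of it.

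Library totals ran from 3410411 counts (IPA replicate 1) to 58924711 counts (untreated replicate 2). Levels are given as CPM (counts-per-million of the library total). Untreated replicate 2 stood apart: its correlation with the other libraries in log2 CPM was 0.779 to 0.811, against 0.922 to 0.987 among the other 5. For these correlations CPM was computed with TMM normalization factors and a prior count of 2. The correlations were computed across genes and genes are not replicates. Fold changes and their tests are therefore given with and without that library. Markers of 4T1 cells and of possible other cells were not analysed here, since the table gives Ensembl IDs without names.

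Dusp6 had the largest fold change of the 9 genes in edgeR, both over all 6 libraries and without untreated replicate 2, and it was lower with IPA. Dusp4, of the same family, was higher in the 3 treated samples than in any untreated one, with a smaller fold change. The other 7 genes had differences that did not pass the test in any comparison run. Of these, Spry4 was given no adjusted p by DESeq2 without untreated replicate 2. With all 6 libraries, the edgeR quasi-likelihood test with Benjamini-Hochberg adjustment called 0 of the 9 genes higher and 0 lower at an adjusted p under 0.05, where 0% of the 24935 IDs tested were called. Before adjustment 2 of the 9, Dusp4 and Dusp6, had a p under 0.05, against 6.26% of all IDs. Without untreated replicate 2, 1 of the 9 fell, Dusp6, against 2.2% of 25592 IDs, and 0 of the 9 rose, against 1.26%. Before adjustment 3 of the 9 then had a p under 0.05 (Dusp4, Dusp6 and Etv4), against 16.8% of all IDs. The median log2 fold change of the 9 was -0.26 over all 6 libraries, against -0.08 for all tested IDs, and -0.16 against -0.04 without untreated replicate 2. All 9 passed the filter on low counts in both comparisons.

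**Figure D1:**
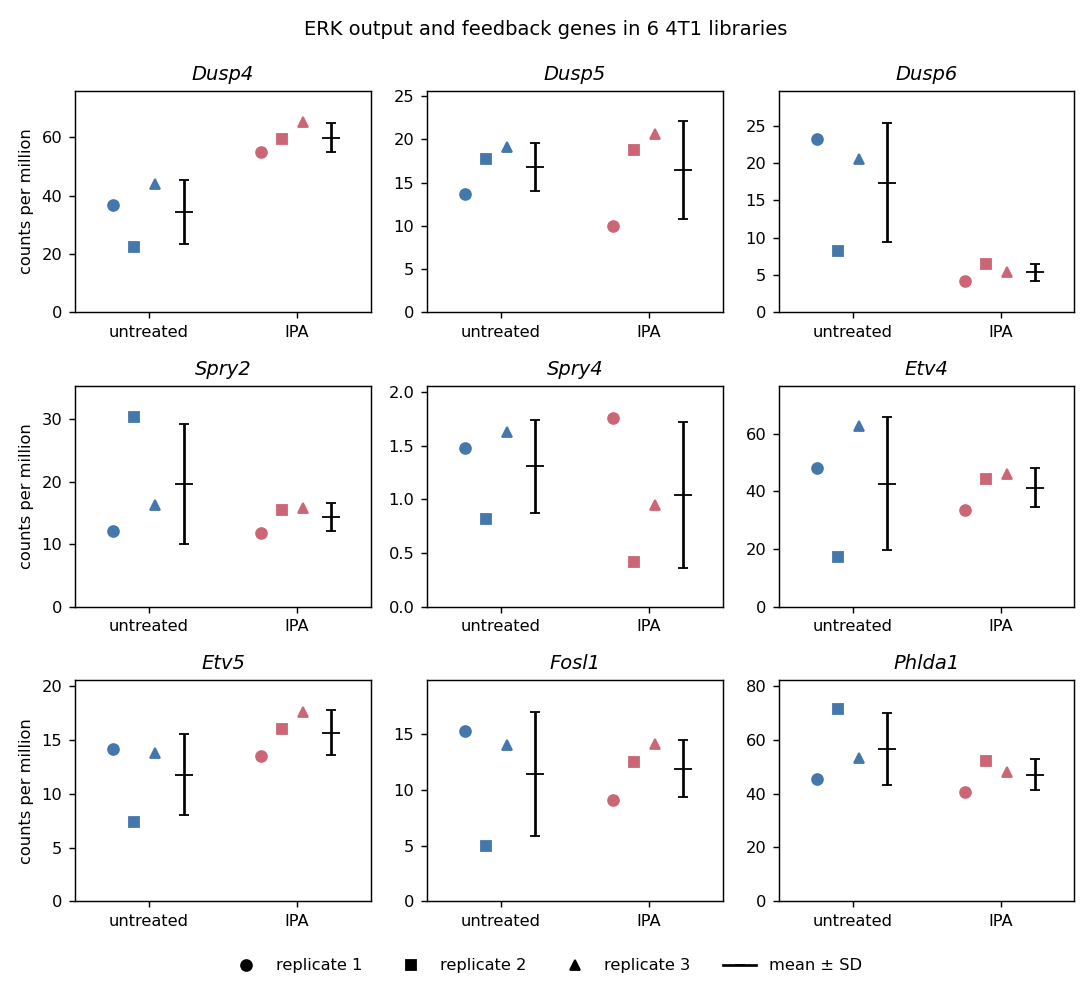
CPM (by library total, vertical axis from 0) of each gene in the 3 untreated (blue) and 3 IPA (red) samples, with the mean and SD beside them in black and a marker shape for each replicate number. The groups are apart only for Dusp4 and Dusp6, and untreated replicate 2 (square) lies away from untreated replicates 1 and 3 for most genes.

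DUSP6 is a cytoplasmic phosphatase selective for ERK, and its gene is a widely used reporter of ERK activity. Dusp6 (ENSMUSG00000019960) lies on chromosome 10 at 99263231 to 99267489 in RefSeq's GRCm38.p6 annotation. It stood at 23.3, 8.25 and 20.5 CPM in untreated replicates 1, 2 and 3 and at 4.11, 6.47 and 5.36 CPM in IPA replicates 1, 2 and 3. The highest treated sample was thus below the lowest untreated one, and the groups did not overlap; 6.38% of all tested IDs were lower in this way. The means were 17.3 ± 7.99 CPM untreated and 5.31 ± 1.18 CPM with IPA (SD, n = 3 each). In bulk RNA, fewer cells that express a gene and less RNA per cell cannot be told apart.

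The fitted log2 fold change of Dusp6 over all 6 libraries was -1.85 ± 0.38 (SE), with a 95% interval of -2.75 to -0.94. Its edgeR p was 0.00184 before adjustment and 0.657 after it. With untreated replicate 2 left out, Dusp6 fell by 2.07 ± 0.23 on the log2 scale, with an interval of -2.54 to -1.60 and an edgeR adjusted p of 1.82e-05. This is a level 4.2 times lower with IPA, and 216 of the 25592 tested IDs had a more negative fold change. Over all 6 libraries 1212 of 24935 IDs did. Untreated replicate 2, whose Dusp6 level was the untreated one nearest the treated samples, thus decided the call in edgeR and moved the gene's rank. That this library stands apart was known from earlier results of these data when the comparison without it was chosen. DESeq2 called Dusp6 lower over all 6 libraries (adjusted p = 0.0125), where it called 0.341% of 18483 IDs lower and 0.119% higher. IPA replicate 1, the shallowest library, held 14 Dusp6 counts, an exact 95% interval of 2.24 to 6.89 CPM. With it and untreated replicate 2 both left out, Dusp6 still fell by 1.95 on the log2 scale (edgeR adjusted p = 3.79e-05). A long noncoding RNA gene, Gm34921, overlaps Dusp6 in that annotation, and how the counting treated strand is not given in the sources used here, so reads of the pair may not be separable.

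DUSP4 is a nuclear phosphatase that acts on ERK and on other MAP kinases. Dusp4 (ENSMUSG00000031530) lies on chromosome 8 at 34807610 to 34819894. Its level was 36.9, 22.2 and 43.8 CPM in untreated replicates 1, 2 and 3, and 55.1, 59.3 and 65.3 CPM in IPA replicates 1, 2 and 3. Every treated sample was above every untreated one, as for 15.7% of all tested IDs. The means were 34.3 ± 11.0 CPM untreated and 59.9 ± 5.13 CPM with IPA (SD, n = 3 each).

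The log2 fold change of Dusp4 was 0.62 ± 0.22 (SE) over all 6 libraries, with an interval of 0.09 to 1.14 and an edgeR adjusted p of 0.657. Leaving out untreated replicate 2 gave 0.47 ± 0.15, with an interval of 0.17 to 0.78 and an adjusted p of 0.0796, which misses the threshold. DESeq2 and limma-voom without that library gave adjusted p-values of 0.0414 and 0.0442. DESeq2 then called 1 of the 9 higher, Dusp4, and 1 lower, Dusp6, against 3.71% and 3.86% of the 17092 IDs given an adjusted p. Spry4 was not among these IDs. Part of the difference in CPM between the groups over all 6 libraries goes with untreated replicate 2, which had the lowest Dusp4 level of the 6.

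DUSP5 is a nuclear phosphatase specific for ERK. Dusp5 (ENSMUSG00000034765), on chromosome 19 at 53529145 to 53541809, stood at 13.7, 17.7 and 19.1 CPM in untreated replicates 1, 2 and 3 and at 9.97, 18.8 and 20.6 CPM with IPA. The treated samples spanned the untreated ones, with IPA replicate 1 lowest. Its log2 fold change was -0.26 ± 0.37 (SE) over all 6 libraries and -0.03 ± 0.24 without untreated replicate 2, with an interval of -0.54 to 0.48 in the latter. Its sign differed between alternative settings.

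The 3 phosphatase genes were also compared within each library, since a ratio of 2 genes in 1 library does not depend on depth or on the normalization factor. Counts are not corrected for gene length here, so a share is compared only between libraries and not between genes. Dusp6 made up 31.5%, 17.1% and 24.6% of the summed Dusp4, Dusp5 and Dusp6 counts in untreated replicates 1, 2 and 3. In IPA replicates 1, 2 and 3 it made up 5.93%, 7.64% and 5.87%. The exact 95% binomial interval of IPA replicate 1, from 236 counts, was 3.28% to 9.75%, below that of untreated replicate 2, 15.7% to 18.5%. These intervals cover counting error only. The shares come from the same Dusp4 and Dusp6 counts whose levels were apart above, so their separation is not independent support for a difference. The share of Dusp4 was 49.5 ± 3.21% untreated and 73.8 ± 5.14% with IPA (SD, n = 3 each), without overlap of the groups, and that of Dusp5 overlapped, at 26.1 ± 9.51% and 19.7 ± 4.62%. The untreated means without replicate 2 were 51.2% for Dusp4 and 20.7% for Dusp5.

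**Figure D2:**
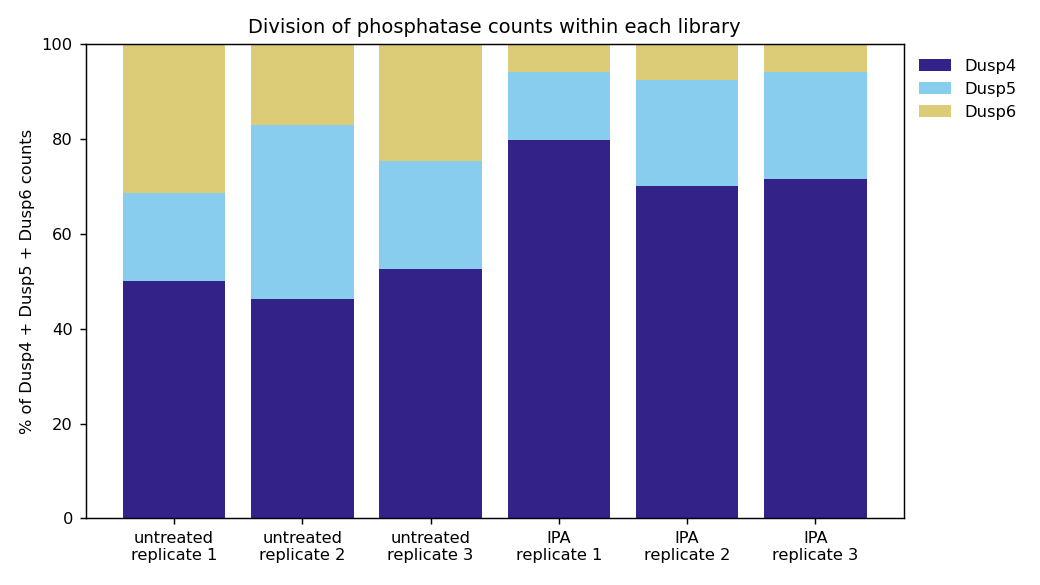
Share of the summed Dusp4, Dusp5 and Dusp6 counts (vertical axis, percent) that fell to each gene in each of the 6 libraries. The Dusp6 part (top) is 17.1% to 31.5% in untreated samples and 5.87% to 7.64% in IPA samples, and the Dusp4 part (bottom) is larger in each IPA sample than in any untreated one.

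Measured as a log2 ratio of counts, Dusp6 to Dusp4 was -0.67, -1.43 and -1.10 in untreated replicates 1, 2 and 3 and -3.75, -3.20 and -3.61 in IPA replicates 1, 2 and 3. Untreated replicate 2 lay on the untreated side in this ratio, 1.77 log2 units above the nearest treated sample. As Dusp6 was lower and Dusp4 higher in every treated sample, the groups had to separate in this ratio. Their separation adds no support beyond the 2 genes taken singly. The mean log2 ratio with IPA minus that of untreated samples was -2.45, and -2.64 without untreated replicate 2. The same difference was -1.51 for Dusp6 to Dusp5 and 0.94 for Dusp4 to Dusp5, both without overlap of the groups, although untreated replicate 2 was only 0.18 log2 units above the nearest treated sample for Dusp6 to Dusp5. The gap was also narrow for Dusp4 to Dusp5, from 1.43 in untreated replicate 1 to 1.66 in IPA replicate 2. Each of these 3 differences had a two-sided exact permutation p of 0.1, the smallest that 3 samples against 3 allow, and 0.167 after Benjamini-Hochberg adjustment over the 5 ratios computed. The 3 ratios are not independent, since each follows from the other 2. How often other pairs of genes separate the groups was not computed. The difference for Dusp4 to Dusp5 was 0.61 without untreated replicate 2.

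SPRY2 and SPRY4 are Sprouty proteins, inhibitors that ERK signalling induces and that limit its activation by receptor tyrosine kinases. Spry2 (ENSMUSG00000022114), on chromosome 14 at 105891947 to 105896819, stood at 12.1, 30.5 and 16.3 CPM in untreated replicates 1, 2 and 3 and at 11.7, 15.4 and 15.9 CPM with IPA. Apart from untreated replicate 2, which was the highest of the 6, the samples of both groups covered the same range. Its log2 fold change of -0.77 ± 0.48 (SE) over all 6 libraries was -0.06 ± 0.22 without untreated replicate 2, with an interval of -0.51 to 0.39 (edgeR adjusted p = 0.94).

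Spry4 (ENSMUSG00000024427) had few counts. There were 30, 48 and 86 in untreated replicates 1, 2 and 3 and 6, 18 and 39 in IPA replicates 1, 2 and 3. As levels these were 1.48, 0.815 and 1.63 CPM and 1.76, 0.413 and 0.951 CPM. The groups overlapped, and the level in IPA replicate 1, the highest of the 6, rests on 6 counts, with an exact 95% interval of 0.646 to 3.83 CPM. The log2 fold change was -0.63 ± 0.73 (SE) over all 6 libraries. Without untreated replicate 2 it was -1.05 ± 0.53, with an interval of -2.16 to 0.06 (edgeR adjusted p = 0.331). The exact 95% intervals of IPA replicates 2 and 3, 0.245 to 0.653 and 0.676 to 1.30 CPM, did not overlap, so these treated samples differed by more than counting error. The log2 count ratio of Spry4 to Spry2 differed by -0.15 between IPA and untreated samples (two-sided exact permutation p = 1, also after adjustment), and by -0.83 without untreated replicate 2, with overlap of the groups in both.

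ETV4 and ETV5 belong to the PEA3 group of ETS transcription factors. Etv4 (ENSMUSG00000017724), on chromosome 11 at 101769747 to 101785310, stood at 48.1, 17.4 and 62.6 CPM in untreated replicates 1, 2 and 3 and at 33.4, 44.4 and 46.1 CPM with IPA. The treated samples fell between untreated replicate 2 and the other 2 untreated samples. The log2 fold change was -0.19 ± 0.37 (SE) over all 6 libraries, with an interval of -1.07 to 0.69. Without untreated replicate 2 it was -0.50 ± 0.16, with an interval of -0.84 to -0.16 and an edgeR adjusted p of 0.0933, and the groups did not overlap. Of the 9 genes, 2 were then lower without overlap in CPM, Dusp6 and Etv4, where 13.9% of all tested IDs were, and 1 was higher, Dusp4, where 19.8% were.

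Etv5 (ENSMUSG00000013089), on chromosome 16 at 22381313 to 22439570, stood at 14.1, 7.40 and 13.8 CPM in untreated replicates 1, 2 and 3 and at 13.5, 16.0 and 17.6 CPM with IPA. Untreated replicate 2 was again the lowest of the 6, and the remaining samples of the groups overlapped. The log2 fold change was 0.23 ± 0.28 (SE) over all 6 libraries and 0.09 ± 0.20 without untreated replicate 2, with an interval of -0.34 to 0.52. The log2 count ratio of Etv4 to Etv5 differed by -0.34 between IPA and untreated samples, with overlap of the groups (two-sided exact permutation p = 0.4, adjusted 0.5). The difference was -0.59 once untreated replicate 2 was left out, and the groups did not overlap. How often other pairs of genes separate the remaining samples was not computed.

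FOSL1, also called FRA1, is an AP-1 transcription factor subunit whose message and protein rise with ERK activity. Fosl1 (ENSMUSG00000024912), on chromosome 19 at 5447698 to 5455938, stood at 15.3, 4.99 and 14.0 CPM in untreated replicates 1, 2 and 3 and at 9.09, 12.5 and 14.1 CPM with IPA. The groups overlapped, and untreated replicate 2 was the lowest sample. The log2 fold change was -0.08 ± 0.39 (SE) over all 6 libraries and -0.35 ± 0.22 without untreated replicate 2, with an interval of -0.81 to 0.11 (edgeR adjusted p = 0.473). The protein-coding gene Ccdc85b overlaps Fosl1 in the annotation, so its counts carry the same limit as those of Dusp6.

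PHLDA1 is a pleckstrin homology-like domain protein whose gene is induced by growth factor signalling. Phlda1 (ENSMUSG00000020205), on chromosome 10 at 111506286 to 111508649, stood at 45.5, 71.4 and 53.1 CPM in untreated replicates 1, 2 and 3 and at 40.8, 52.2 and 48.0 CPM with IPA. The groups overlapped, with untreated replicate 2 highest. The log2 fold change of -0.55 ± 0.32 (SE) over all 6 libraries became -0.16 ± 0.15 without untreated replicate 2, with an interval of -0.47 to 0.16 (edgeR adjusted p = 0.685).

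**Figure D3:**
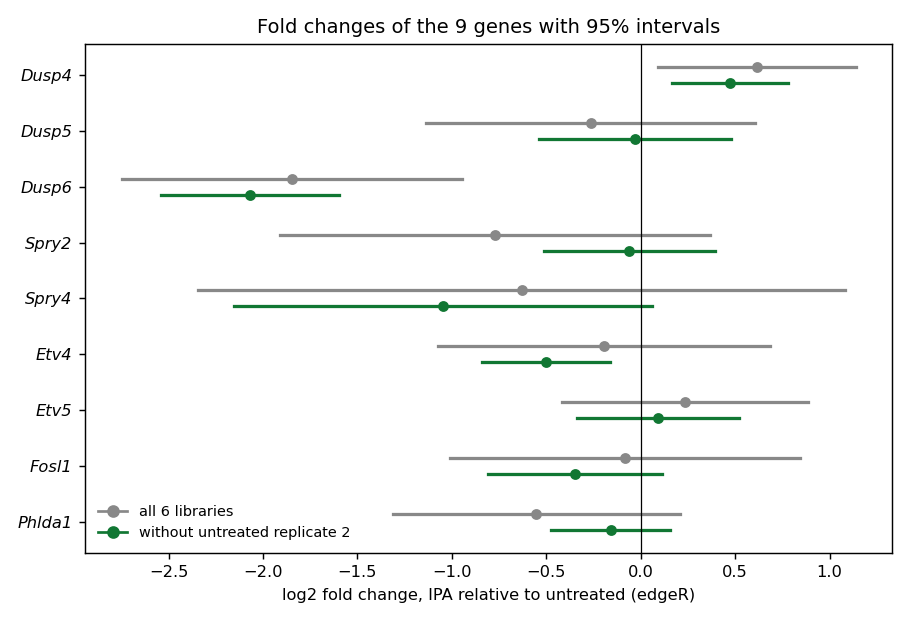
Fitted log2 fold change of each gene, IPA relative to untreated (horizontal axis), with its 95% interval, over all 6 libraries (grey) and without untreated replicate 2 (green). Dusp6 lies at -1.85 and -2.07, apart from the other 8 genes, whose values without untreated replicate 2 run from -1.05 (Spry4) to 0.47 (Dusp4).

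The summed level of the 9 genes was 212 ± 32.0 CPM in untreated samples and 213 ± 29.3 CPM with IPA (SD, n = 3 each). The untreated mean without replicate 2 was 228 CPM. By sample the sum was 210, 181 and 245 CPM in untreated replicates 1, 2 and 3. It was 179, 225 and 234 CPM in IPA replicates 1, 2 and 3, lowest in IPA replicate 1, the shallowest library. This sum weighs most on the genes with the most counts and does not show whether the genes moved together. In both comparisons 7 of the 9 fold changes were negative and 2 positive, Dusp4 and Etv5. The median of all tested IDs was also negative, at -0.08 over all 6 libraries and -0.04 without untreated replicate 2. These signs depended on the normalization and on the libraries kept. Without IPA replicate 1, Dusp5 (0.0073) and Fosl1 (0.090) were positive. Without both it and untreated replicate 2, Dusp5 (0.197) and Spry2 (0.070) were. Leaving out untreated replicate 1 or 3 also turned Fosl1 positive, and leaving out untreated replicate 3 turned Etv4 positive. With library totals Fosl1 was positive over all 6 libraries (0.072), and Dusp5 (0.071) and Spry2 (0.043) were positive without untreated replicate 2. Without untreated replicate 2, the 95% intervals of Dusp5, Spry2, Etv5 and Phlda1 lay within 0.54 log2 units of no difference on either side, and the interval of Dusp6 ran from -2.54 to -1.60.

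Untreated replicate 2 deviated in both directions within the set. It had the lowest CPM of the 6 libraries for 4 of the 9 genes (Dusp4, Etv4, Etv5 and Fosl1) and the highest for 2 (Spry2 and Phlda1). Among the 13113 tested IDs that averaged at least 5 CPM it was lowest for 59.7% and highest for 24%. Relative to the mean log2 CPM of untreated replicates 1 and 3, its level was -1.66 for Etv4, -1.55 for Fosl1, -1.40 for Dusp6, -0.85 for Dusp4, 0.54 for Phlda1 and 1.12 for Spry2. IPA replicate 1 was the lowest treated sample for 8 of the 9 genes, the exception being Spry4, against 45.2% of those IDs. What sets these 2 libraries apart was not tested.

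Likeness of pattern was measured by Pearson's r, over the 6 libraries, between the log2 CPM of an ID and the mean standardised log2 CPM of the 9 genes, here with TMM factors and a prior count of 2 and not by library totals. Among 13105 other IDs that averaged at least 5 CPM, the highest values were 0.986 for ENSMUSG00000087193 and 0.972 for ENSMUSG00000025354, which the table does not pair with names. The 6 points share library depth and normalization, and the mean joins genes that differ in direction. As the highest of 13105 correlations over 6 points, values of this size can arise from the search alone. Other genes of the pathway had been listed by symbol, 22 of the core cascade, 18 further feedback regulators and 29 further outputs. As no table at hand pairs symbols with Ensembl IDs, 0 of these 69 were matched and none was analysed here.

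**Figure D4:**
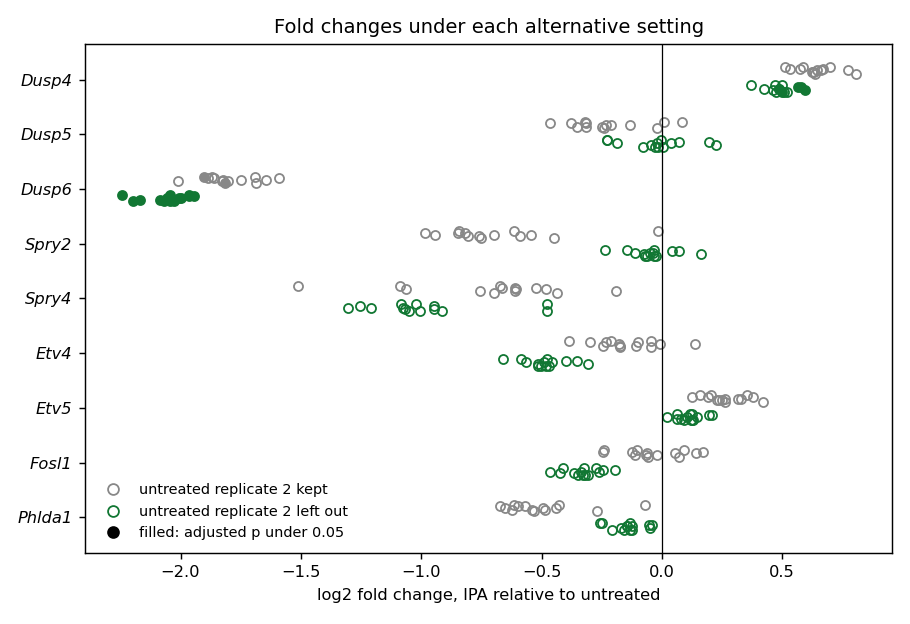
Log2 fold change of each gene, IPA relative to untreated (horizontal axis), under each of 28 alternative settings, with untreated replicate 2 kept (grey) or left out (green); filled points have an adjusted p under 0.05. Dusp6 is negative in 28 of 28 settings and passes in 16, Dusp4 is positive in 28 and passes in 5, and no other gene passes in any. Spry4 has no adjusted p in DESeq2 without untreated replicate 2.

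Across 28 alternative settings of tool, normalization, filter, block and libraries, the log2 fold change of Dusp6 ran from -2.24 to -1.59. It passed in 14 of the 14 settings that leave out untreated replicate 2 and in 2 of the 14 that keep it. These 2 were DESeq2 and limma-voom with quality weights. The latter gave untreated replicate 2 a weight of 0.0388, against 1.27 to 4.37 for the other libraries. The settings reuse the same libraries and are not independent. Dusp4 ran from 0.37 to 0.81 and passed in 5 of the 14 settings that leave out untreated replicate 2 and in 0 of the 14 that keep it. Spry4 and Phlda1 were negative and Etv5 positive in all 28, while Dusp5, Spry2, Etv4 and Fosl1 changed sign between settings.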

How the data were processed

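The authors deposited a table of raw counts: 35304 Ensembl IDs by 6 samples, all whole numbers, per the file headers. GRCm38 and mm10 are the builds in the submitters' processing notes. Strand handling, annotation release, aligner and counter were not given in the sources used here. Groups and replicate numbers come from the sample titles; columns of treated samples, which carry a shorter abbreviation, were matched by letters and number. Gene names of the 9 members came with the list of IDs; positions are those of the same symbols in RefSeq's GRCm38.p6 table. That table has 0 rows with an Ensembl ID, so lists by symbol were not run, and no sequence was used here.

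Counts were tested with edgeR 4.0.16 in R 4.3.3 (robust quasi-likelihood fit, TMM, filterByExpr, Benjamini-Hochberg over all tested IDs). SE was the log2 fold change divided by the square root of F, and 95% intervals used the t quantile of the fit. CPM used library totals, except in the correlations, which used TMM factors, and where TMM factors are named. Alternatives used DESeq2 1.42.0 and limma 3.58.1. By depth, 3 counts are 0.0509 CPM in untreated replicate 2 and 0.88 CPM in IPA replicate 1, which covers counting error only. Each pair of replicates differed by more than sampling noise (chi-square per degree of freedom at least 6.56), and 0 IDs had counts within 2% of a member's in every library. On simulated counts over all 6 libraries, edgeR recovered 20 of 100 changes of 4-fold and 0 of 100 of 2-fold (23879 IDs, 2 false calls). Without untreated replicate 2 it recovered 100 and 78 of 100 (24850 IDs, 21 false calls). False calls were there a larger share of the calls than the 0.05 at which the adjusted p was cut. Changes were placed only in IDs that averaged at least 5 CPM, above the level of Spry4. Each ID had the same fitted dispersion in every simulated library, whereas untreated replicate 2 stood apart in the data. The recovery over all 6 libraries is thus not the power of the real comparison. Without untreated replicate 2 the dispersions were also fitted to these same libraries, so that recovery is not a measured power either.

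All 9 members are named whatever their values. The 2 IDs of like pattern follow a rule of highest correlation, of which 3 were to be named if symbols had been available. The members, lists and tests were chosen with earlier results of these data known.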

Additional observations from a re-analysis of the deposited data

How the results depend on the processing

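With every sample kept, edgeR with RLE or upper-quartile factors or with the filter at 1 CPM in 3 libraries called 0 IDs, as did limma-voom. DESeq2 called 22 higher and 63 lower IDs and 1 gene of the 9 lower; limma-voom with quality weights (0.0388 for untreated replicate 2) called 492 and 755, and 1 of the 9 lower. Using library totals called 1 ID higher, and so did omitting the filter. With library totals the median of all tested IDs moved from -0.08 to 0.13. With 1 sample left out the counts ran from 0 to 322 higher, 0 to 564 lower and 0 to 1 of the 9 lower, every count above 0 coming from leaving out untreated replicate 2.

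With untreated replicate 2 left out, the higher and lower counts were 634 and 660 with DESeq2, 660 and 1009 with limma-voom, 364 and 481 with RLE factors, 309 and 581 with upper-quartile factors, 691 and 327 with library totals, 701 and 749 with no filter, and 287 and 357 with the filter at 1 CPM. With a second library also left out they were 92 and 170 (untreated replicate 1), 509 and 718 (untreated replicate 3), 719 and 763 (IPA replicate 1), 221 and 244 (IPA replicate 2), and 131 and 153 (IPA replicate 3). Where untreated replicate 1 or 3 is left out, the lone untreated library is assumed to vary like the treated ones. In each of these settings 1 of the 9, Dusp6, was lower, and in 5 of them 1, Dusp4, was higher: DESeq2, limma-voom, library totals, and without untreated replicate 3 or IPA replicate 1. Beyond the fewer samples or IDs tested, the cause was not tested.

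With the replicate block over all 6 samples 0 IDs and 0 of the 9 were called. The block without untreated replicate 2, chosen after the data had been examined, gave 136 higher and 202 lower IDs, with 1 of the 9, Dusp6, lower. The correlations of deviations between samples of one number were -0.0771, 0.0183 and 0.161, and 3 of 6 samples correlated best with their own number, so the numbers were not taken to pair the samples.

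Signs changed for genes that passed in no setting. Fosl1 was at 0.14 with limma-voom and 0.072 with library totals. Dusp5 was at 0.082 with quality weights and, without untreated replicate 2, at 0.037 with limma-voom, 0.071 with library totals and 0.0063 with no filter. Spry2 was then at 0.043 with library totals. With 1 or 2 samples left out, Fosl1 ran from -0.47 to 0.17, Etv4 from -0.66 to 0.14, Dusp5 from -0.46 to 0.23 and Spry2 from -0.98 to 0.16. The promoter setting was not run, as no promoter table was used here. Counting error is widest for Spry4 and in IPA replicate 1.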
